A study of Homo sapiens with 2 samples.

Results

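The immediate early and stress response genes are 45 protein-coding genes of the rapid response of cells to growth factors, serum or stress, including regulators that end this response. They were selected by name, with earlier results of the same peak list known, and each was located by its RefSeq span on GRCh38. A peak was assigned to a gene when it overlapped the span or the 5 kb to either side by at least 1 bp. Among the 45 members, 19 had at least 1 such peak and 26 had none. The annotation held 20033 protein-coding genes with a span, so 19988 others served for comparison.

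HNRNPK binding to DNA was measured by ChIP-seq in untreated H1299 cells, an established human non-small cell lung cancer line. An antibody against HNRNPK gave 1 IP library, and 1 input library of the same cells was made without antibody. The deposited list held 22351 peaks of the IP, and although its peak names spell the line with another first letter it was read as the list of these cells. There were no replicates, so no value below carries a replicate error and no test was made.

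Immediate early genes need no new protein synthesis for their induction. Kinases of the MAPK pathway reach factors already bound at their promoters, such as SRF with its ETS partners at CArG boxes and CREB at CRE sites, and the genes are short, fast to transcribe and quickly silenced. Their products include the FOS and JUN proteins that form the AP-1 factor, zinc finger factors, nuclear receptors, phosphatases that turn the MAPKs off and proteins that destroy short-lived mRNAs. HNRNPK is a nuclear protein whose KH domains bind C-rich single strands of RNA and DNA, and it takes part in transcription, splicing and mRNA stability.

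The promoter sequences of 4 members are printed because the peaks at these genes differ in place and because their promoters hold motifs of the serum response or C-rich runs. EGR1 and KLF6 carried the highest fold enrichments among members, FOSB carried the second highest pileup, and SRF encodes the factor that binds the CArG box. Each run is the 250 bases before the annotated gene start in RefSeq GRCh38.p14, read 5′ to 3′ on the strand of the gene. Capitals mark CArG boxes in EGR1 and SRF and the letters CCCTCCC, on either strand, in KLF6 and FOSB. The runs are EGR1 at chr5:138465229-138465478 on the plus strand, SRF at chr6:43171019-43171268 on the plus strand, KLF6 at chr10:3785210-3785459 on the minus strand and FOSB at chr19:45467746-45467995 on the plus strand.
EGR1: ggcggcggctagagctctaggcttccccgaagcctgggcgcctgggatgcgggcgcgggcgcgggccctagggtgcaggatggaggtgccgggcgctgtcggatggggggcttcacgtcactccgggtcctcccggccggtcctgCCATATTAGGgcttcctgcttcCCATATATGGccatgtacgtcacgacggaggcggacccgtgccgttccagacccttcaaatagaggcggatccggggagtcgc
SRF: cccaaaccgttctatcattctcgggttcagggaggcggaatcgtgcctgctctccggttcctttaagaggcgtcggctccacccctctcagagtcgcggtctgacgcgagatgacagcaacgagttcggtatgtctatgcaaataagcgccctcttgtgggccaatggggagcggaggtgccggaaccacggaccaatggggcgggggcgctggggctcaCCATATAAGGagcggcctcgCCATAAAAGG
KLF6: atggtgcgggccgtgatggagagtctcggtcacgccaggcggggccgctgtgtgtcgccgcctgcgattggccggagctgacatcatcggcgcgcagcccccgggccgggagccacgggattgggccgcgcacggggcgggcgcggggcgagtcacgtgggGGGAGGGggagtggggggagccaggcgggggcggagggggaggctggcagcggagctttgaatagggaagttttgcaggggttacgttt
FOSB: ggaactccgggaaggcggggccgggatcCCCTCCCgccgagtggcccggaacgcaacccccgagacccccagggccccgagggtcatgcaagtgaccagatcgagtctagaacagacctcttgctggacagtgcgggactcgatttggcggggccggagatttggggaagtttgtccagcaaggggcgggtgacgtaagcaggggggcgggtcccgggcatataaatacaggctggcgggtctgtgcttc
The CArG boxes of EGR1 began 105 and 83 bases before its start, and those of SRF began 30 and 10 bases before its start. The GGGAGGG of KLF6 began 89 bases before the start, and the CCCTCCC of FOSB 222 bases before it. None of these 4 promoter windows was itself overlapped by a peak. The nearest peak lay 756 bp inside EGR1, 804 bp inside FOSB, 8936 bp inside SRF and 328 bp upstream of KLF6.

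With at least 1 peak, the 19 of 45 members made up 42.2% (Wilson 95% confidence interval, 29% to 56.7%), against 38.2% of the other protein-coding genes. Members are short, with a median span of 5053 bp against 24210 bp, and a short window catches fewer peaks. When the other genes were weighted to the members' spread over 6 length classes, 29.7% of them had a peak, which lies inside the members' interval. The intervals cover counting error only, and since members were chosen with results known, these shares are descriptions. In the window of 5 kb, the share with any peak was thus not separated from that of like-length genes by counting error. Inside the span alone, 14 members had a peak, or 31.1%, against 17% of like-length genes. The number and strength of the peaks in the 5 kb window stood farther apart. The members held 48 peaks, and as many genes of like length held 21.4. A peak with a false discovery rate (FDR) under 0.05 was present at 9 members, or 20% (10.9% to 33.8%), against 9.03% of other genes and 6.5% of like-length genes. A fold enrichment of at least 5, which is the IP coverage over a local background, was reached at 5 members, or 11.1% (4.84% to 23.5%), against 2.18% of other genes and 1.54% of like-length genes. These 5 were EGR1, KLF6, FOSL1, FOSB and DUSP5.

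The AP-1 genes encode the leucine zipper proteins that pair into the AP-1 factor. Of 8, 4 had peaks: FOSL1, FOSB, JUND and JUN. FOSB, a partner of the JUN proteins, had 5 peaks, 4 of them in its span of chromosome 19 from 45467996 to 45475179. Its highest peak, from 45473699 to 45474589, reached a pileup of 23.36 and a fold enrichment of 5.51, its FDR was 5.60e-08, and it ended 590 bp before the far end of the gene. Across that far end lay a further peak of pileup 17.52 with an FDR of 0.00573. The pileup is the height of IP coverage in scaled fragments, and 23.36 stood for a depth of 24 fragments. Numbers of fragments given for peaks are such depths, and a long peak can hold more. The peak nearest the FOSB start had a pileup of 15.58 but a fold enrichment of 2.37, the lowest of the 48 member peaks. FOSL1, which encodes FRA-1, a FOS-family protein linked to invasion of epithelial tumours, had 7 peaks, the most of any member. The strongest, from 65891292 to 65892577 on chromosome 11, was 1286 bp long and crossed the lower end of the FOSL1 span, and was enriched 6.1-fold at a pileup of 13.63 and an FDR of 2.39e-05. It also overlapped CCDC85B, and 3 of the 7 peaks overlapped a neighbouring coding gene, CCDC85B or FIBP, so they cannot be assigned to FOSL1 alone. JUND, the JUN protein that is present in resting cells, had 3 peaks, none in the gene itself and none with an FDR under 0.05. The nearest lay 212 bp past its far end. JUN had 1 peak of 6 fragments in its gene, with an FDR of 0.64. FOS, FOSL2, JUNB and ATF3 had no listed peak.

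The EGR genes encode zinc finger factors that bind GC-rich promoters, and EGR1 is the member induced by serum in most cells. EGR1 had 6 peaks in a window in which no peak lay upstream of the gene. Its span is chromosome 5 from 138465479 to 138469303. The strongest peak, from 138467709 to 138468620, had a pileup of 24.34 (25 fragments) over a derived local background of 1.49. Its fold enrichment of 10.17 was rank 6 of the 22351 peaks, with an FDR of 2.10e-16. It lay inside the gene, 2230 bp from the start and 683 bp from the far end. The other EGR1 peaks had pileups from 8.76 to 10.71 and FDRs of 0.122 or more, 2 in the gene and 3 downstream of it. The 100 kb that flank the EGR1 window held 1 peak, and the flanks of other genes under 10 kb held 1.91 per 100 kb. EGR2, EGR3 and EGR4 had no listed peak.

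The KLF genes encode zinc finger factors that bind CACCC and GC boxes. KLF6 had 2 peaks. The stronger lay upstream of the gene on chromosome 10 from 3785537 to 3786272, 328 bp before the start, with a pileup of 19.47 over a derived local background of 1.05. Its fold enrichment of 10.004 was rank 7 of the list, next to that of EGR1, and its FDR was 1.48e-13. It was 736 bp long and overlapped no other annotated gene. The other KLF6 peak lay inside the gene with a fold enrichment of 4.3 and an FDR of 0.101. The flanks of KLF6 held 0 peaks in 100 kb, against 1.91 at other genes under 10 kb. KLF10, a factor induced by TGF-beta, had 2 peaks outside its span. The peak 599 bp from the gene, on chromosome 8 from 102656324 to 102656663, was enriched 4.23-fold at a pileup of 11.68 and an FDR of 0.0219. It also overlapped the non-coding LOC101927245. KLF2 and KLF4 had no listed peak.

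The IER genes are named for their immediate early response. IER2, a nuclear protein gene on chromosome 19 from 13150411 to 13154911, had 4 peaks, and 3 had an FDR under 0.05. The strongest, from 13153736 to 13154098, 813 bp before the far end, was enriched 4.97-fold with a pileup of 12.66, at an FDR of 0.00154. The longest, from 13155076 to 13156565, began 165 bp past the far end of the gene. At 1490 bp it was the longest of the 48 peaks, and its FDR was 0.0472 at a pileup of 15.58. IER3, which regulates survival of stressed cells, had 1 peak with an FDR of 0.0507, located in the neighbouring gene FLOT1. IER5 had none.

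The ZFP36 genes encode proteins that bind AU-rich elements and speed the decay of mRNAs, including those of other immediate early genes. ZFP36, which encodes tristetraprolin, had 3 peaks around its span of chromosome 19 from 39406847 to 39409407. The peak from 39410107 to 39410474, 700 bp past the far end, reached a pileup of 22.39 (FDR of 0.000196), and the peak inside the gene reached 17.52 (FDR of 0.00573). Their fold enrichments were 3.9 and 3.7. ZFP36L1 had 2 peaks, both inside the gene on chromosome 14 and both with an FDR under 0.05. That from 68795395 to 68795645, 598 bp from the start, was enriched 4.55-fold with a pileup of 12.66, at an FDR of 0.00506. That from 68788968 to 68789730, 1313 bp from the far end, was enriched 4.23-fold with a pileup of 11.68, at an FDR of 0.0219. ZFP36L2 had no listed peak.

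**Figure D1:**
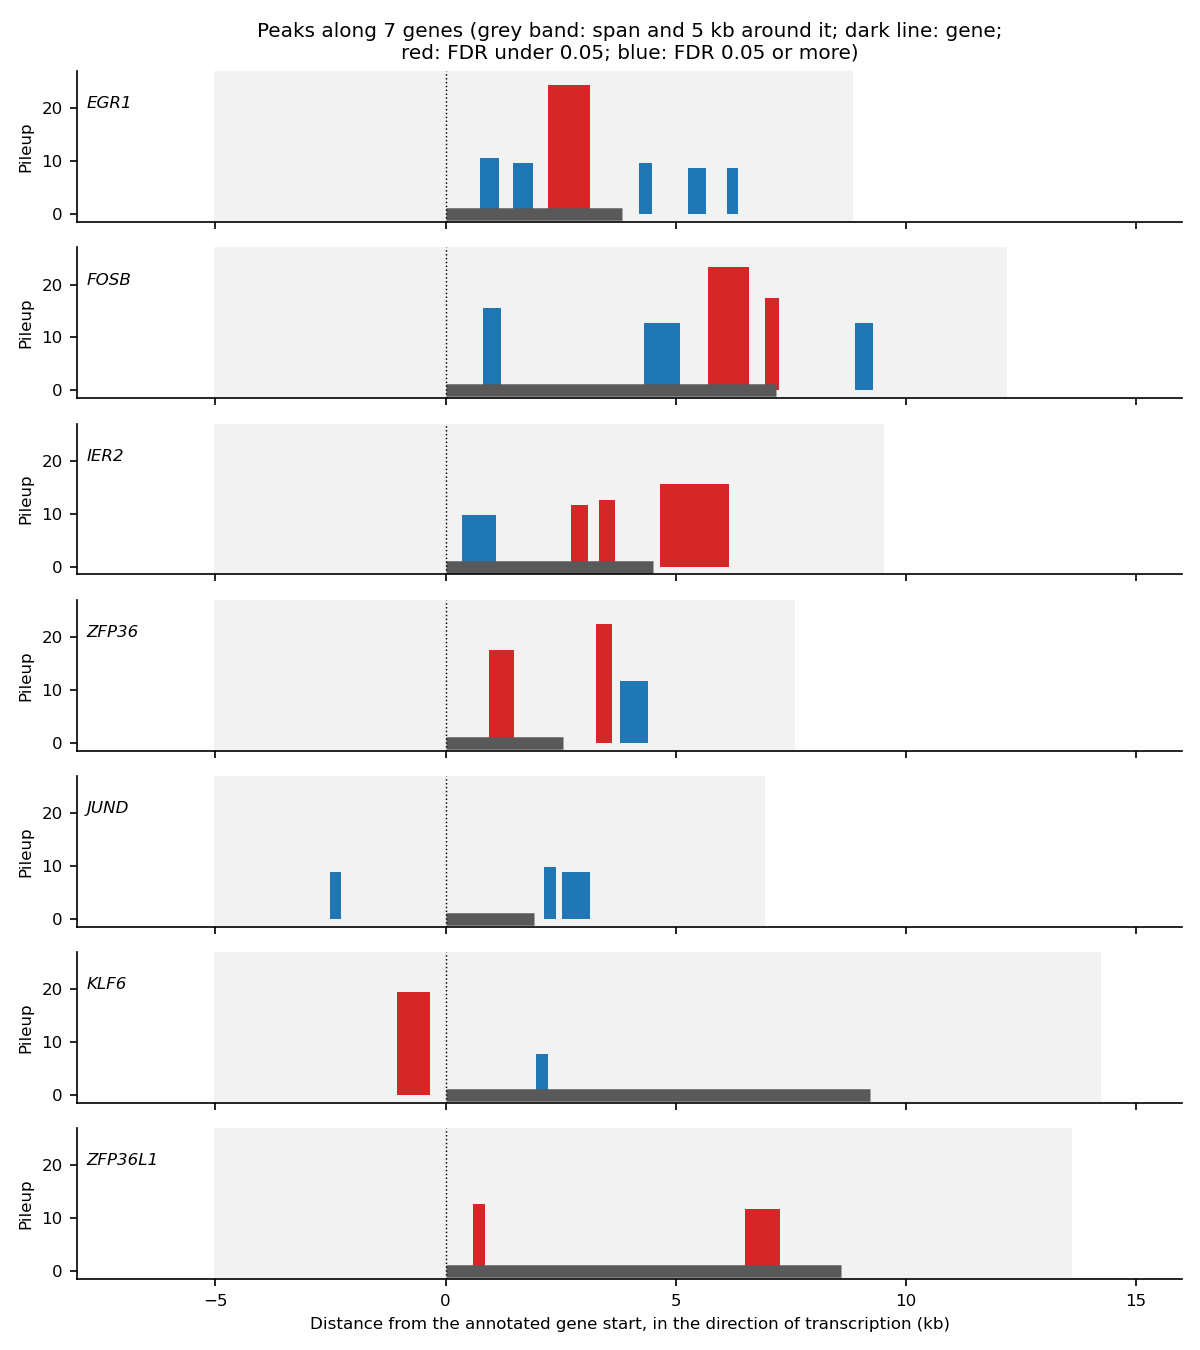
Peaks along 7 members whose strand was known, by distance from the annotated gene start in kb (horizontal) and pileup in scaled fragments (bar height, bar width to scale); the grey band is the span with 5 kb to either side, the dark line the gene, and red bars have an FDR under 0.05. Peaks of EGR1, FOSB, IER2 and ZFP36 lie in and past the gene and none upstream of it, while the strongest peak of KLF6 lies 328 bp before its start.

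The DUSP genes encode phosphatases that inactivate the MAPKs and so close the response. DUSP5, which acts on ERK in the nucleus, had 2 peaks in its span. The stronger, on chromosome 10 from 110508595 to 110508889, 2644 bp from the upper end of the span, had a pileup of 9.73 and was enriched 5.12-fold at an FDR of 0.00579. DUSP6, which acts on ERK in the cytoplasm, had 1 peak 672 bp past its far end with 6 fragments and an FDR of 0.716. DUSP1, DUSP2 and DUSP4 had no listed peak. The NR4A genes encode orphan nuclear receptors. NR4A2 had 4 peaks, 3 of them in its span, with fold enrichments from 3.04 to 3.58 and FDRs of 0.172 or more. NR4A3 had 1 peak with an FDR of 0.29 and NR4A1 had none.

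Among the remaining 15 regulators, 4 had a peak, or 26.7%, against 30.1% of genes of like length. ID1, which blocks basic helix-loop-helix factors from DNA, had 1 peak with 11 fragments and an FDR of 0.371, 339 bp past its far end and over the microRNA gene MIR3193. HES1, ID2 and ID3 had none. MYC, a growth factor-induced driver of proliferation, had 1 peak inside the gene with 8 fragments, a fold enrichment of 3.28 and an FDR of 0.401. SRF had 1 peak inside the gene, 511 bp before its far end and 791 bp long, with a fold enrichment of 4.1 and an FDR of 0.122. CSRNP1 and NFKBIZ had none. Of 7 genes of feedback, survival and stress, only the kinase gene SGK1 had a peak, with an FDR of 0.0704, in a span of 148857 bp, the longest of any member. MCL1, PHLDA1, PPP1R15A, RHOB, SOCS3 and TRIB1 had no listed peak. A gene without an entry may still carry coverage below the limits of the peak caller. The median peak of the list reached a depth of 8 fragments and the lowest a depth of 5.

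The peaks were unevenly spread among members. Those with 3 or more peaks, namely FOSL1, EGR1, FOSB, IER2, NR4A2, JUND and ZFP36, were 7 genes that held 32 of the 48. Among genes under 10 kb, 5 of 35 members had at least 4 peaks, or 14.3% (6.26% to 29.4%), against 48 of 5656 other genes, or 0.849%. At least 5 peaks were found at 3 members and 13 other genes, and at least 6 at 2 members and 5 others. Those 5, named after their values were seen, were APOE, GAPDH, GNB2, LYPD4 and PAF1. No other gene under 10 kb reached the 7 peaks of FOSL1, of which 3 overlapped a neighbouring coding gene. These numbers of peaks and the limit of 10 kb were chosen after the counts had been seen. With peaks less than 1 kb apart joined, the 48 peaks of members became 34. Joined peaks were not counted at other genes, so the comparisons above rest on unjoined peaks.

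By length class, members had a peak more often than other genes at 5 to 10 kb, where EGR2, EGR3, MCL1, PHLDA1 and TRIB1 were the 5 of 13 members without one. The share there was 61.5% against 30.3% of other genes. At 2 to 5 kb, the class with the most members, 4 of 17 had a peak, or 23.5% against 27%. EGR1, IER2, ZFP36 and JUN were these 4. Under 2 kb it was 3 of 5, namely JUND, IER3 and ID1, against 18.3%. At 10 to 20 kb, DUSP5 and SRF of 4 members had a peak, or 50% against 35.7%. At 20 to 50 kb it was NR4A3 of 4, or 25% against 37.5%, and at 50 kb and over SGK1 of 2, or 50% against 50.6%.

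Chromosome 19 is dense in genes and in peaks. It carries 7 members, of which FOSB, IER2, JUND and ZFP36 had a peak, or 57.1% against 46.7% of genes of like length on that chromosome. These 4 held 15 peaks, against 5.93 for as many such genes as members. JUNB, KLF2 and PPP1R15A, on the same chromosome, had no listed peak. The windows of FOSB and ZFP36 lay among 12 peaks each in their 100 kb of flanks. Outside chromosome 19 there were 33 peaks at 38 members, against 16.6 for genes of like length, and 6 members had an FDR under 0.05, or 15.8% against 5.67%. Within the chromosome and length class of each member, the number of peaks for as many other genes was 22.2 and the share with an FDR under 0.05 was 7.62%. Chromosome 2 also carries 7 members, of which NR4A2 alone had peaks, against 30.3% of like-length genes there. Its 4 peaks compare with 2.72 for as many such genes.

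Taken over all short members, peaks were denser in the windows than in the surroundings. Members under 10 kb held 8.44 peaks per 100 kb of window and 2.83 per 100 kb in the 50 kb of flank on either side, a ratio of 2.98. For other protein-coding genes under 10 kb the values were 2.61 and 1.91, a ratio of 1.37. Outside chromosome 19, the ratio was 3.21 for members under 10 kb and 1.39 for other genes under 10 kb. Over all 45 members of any length, the values were 4.76 and 2.51, a ratio of 1.9. EGR1 had 4.34 peaks per 10 kb of window against 0.1 in its flanks, FOSL1 3.78 against 0.4, FOSB 2.91 against 1.2 and IER2 2.76 against 0.5. Of the 35 members, 20 had no peak in the window. At least 1 peak in the flanks was found at 18 of these, among them DUSP1 with 9, KLF2 with 5 and DUSP2 and HES1 with 4 each. This was not counted for other genes under 10 kb, and the flanks are longer than the windows, so it cannot be read as a trait of members. The flanks were compared after the peaks had been seen.

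Single peaks at members were higher and longer than those of the rest of the list, but not more enriched at the median. The median pileup was 9.73 for the 48 peaks and 7.79 for the 22303 others, and the median length was 371 and 272 bp. The others were all remaining peaks, not matched for gene length or chromosome. Without chromosome 19, the median pileup at members was 8.76. The median fold enrichment was 3.58 in both. The local background derived from these values had a median of 2 at members and 1.28 elsewhere. It was 2 or more at 26 of the 48 member peaks, against 26% of all peaks. The higher pileup at members thus went with a higher local background, and the reason was not tested. In the upper part of the range members stood farther out. An FDR under 0.05 was given to 14 of 48 member peaks, or 29.2%, against 15.5% of the others, and a fold enrichment of at least 5 to 10.4% against 3.17%. Peaks of 500 bp or more made up 27.1% against 6.12%.

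**Figure D2:**
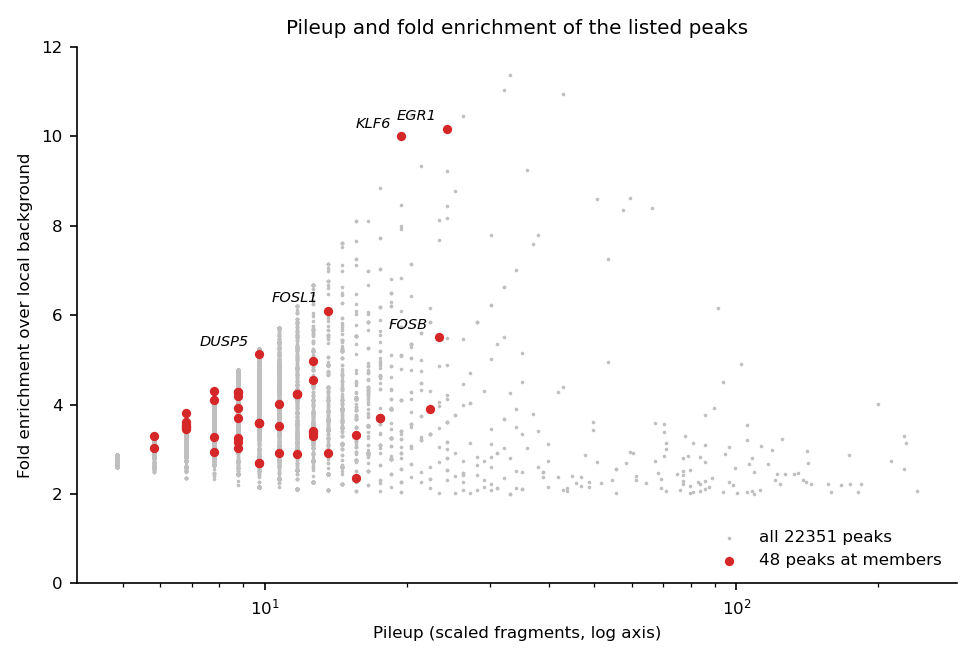
Pileup in scaled fragments (log axis) and fold enrichment over the local background of all 22351 peaks (grey) and of the 48 peaks at members (red), with names at a fold enrichment of 5 or more. EGR1 and KLF6 lie at 10.17 and 10.004, near the upper edge of the list, and most other member peaks lie among the bulk.

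The strand was known for 34 members, which held 31 peaks. Relative to the gene, 2 of these lay upstream, 18 overlapped the gene and 11 lay downstream. The upstream peaks were those of KLF6 and JUND. The start of the gene was nearer than its far end for 11 of 31 peaks, or 35.5%, at members of any length. Under 10 kb it was nearer for 10 of 28 member peaks, or 35.7%, against 47.7% of the peaks at other genes. Inside the genes alone, 9 of 18 peaks, or 50%, were nearer the start at members of any length. Under 10 kb the shares there were alike, with 8 of 15 member peaks, or 53.3%, and 51.6% of 572 at other genes. Per 100 kb, members under 10 kb had 1.54 peaks upstream, 15.4 in the part of the gene nearer the start, 13.5 in the part nearer the far end and 8.46 downstream. The other genes had 2.26, 2.92, 2.74 and 2.7. The upstream value rests on 2 peaks, and 8 further peaks lay outside the spans of short members without a known strand, so their side of the gene is unknown. EGR1, FOSB, IER2, ZFP36 and JUND held 21 of the 28 peaks behind these member values, so the profile rests largely on 5 genes. A promoter window ran from 250 bases before to 50 after the annotated start at the outer end of the span. It was overlapped by a peak at 0 of 34 members (0% to 10.2%) and at 1.71% of 13785 other genes. Alternative starts of a gene were not covered.

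Promoter sequences of 34 members were compared with all 13819 protein-coding promoters of the same length. Each was taken at the outer end of the gene span, without alternative starts. Members were somewhat richer in G and C, with a median of 65.7% against 62.7%. The median was 64% for the 13 members with a peak and 66.7% for the 21 without. Among other genes the order was the reverse, with 65% for those with a peak and 61.3% for those without. CArG boxes were found at 2 of 34, EGR1 and SRF, or 5.88% against 1.22% of all promoters. The CRE letters TGACGTCA were found at DUSP1, JUND and PPP1R15A, or 8.82% against 2.7%. The AP-1 letters TGACTCA were found at FOSL2 alone, or 2.94% against 3.64%, and the letters GGGCGG at 22, or 64.7% against 58.5%. The C-rich letters CCCTCCC were in 14 promoters, or 41.2% against 29.8%. They were found at 46.2% of the members with a peak, namely FOSB, IER2, JUN, KLF6, NR4A3 and SGK1, and at 38.1% of those without. At other genes the shares were 34.2% with a peak and 27.1% without. The run CCCC was in all 34, against 93.7%. The letters GCGAGG and CTAATG were searched because the study named them for HNRNPK. GCGAGG was in 11 member promoters, or 32.4% against 28%, with 38.5% of the members with a peak and 28.6% of those without, and 31.4% and 26% at other genes. CTAATG was in 0 against 5.12%. Both strands were searched, and CCCTCCC and CCCC can overlap in longer C runs. A match describes letters in this window and is no binding site.

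The list of 23 kinases and factors upstream of the response includes the MAPKs, the RSK kinases, the ELK and CREB factors and their coactivators, most of them long genes. A peak was present at 8, or 34.8% (18.8% to 55.1%), against 47.4% of genes of like length, and they held 16 peaks against 26.5. An FDR under 0.05 was present at 1, or 4.35% (0.772% to 21%), against 11.7% of like-length genes. This was RPS6KA5, the MSK1 kinase that phosphorylates histones at immediate early genes, at 0.0186. The intervals of this list overlap those of the members, and the difference was not tested. MAPK9, which encodes the JNK2 kinase, had 5 peaks with FDRs of 0.242 or more. BRAF, CREB1 and ELK1 were among those with no listed peak. A list of 32 other immediate early or stress genes had a peak at 17, or 53.1% (36.4% to 69.1%), against 30% of like-length genes, and held 26 peaks against 15.3. An FDR under 0.05 was present at 7, or 21.9% (11% to 38.8%), against 6.56%. These 7 were CCN1, CCN2, ATF4, VEGFA, ARC, PER1 and PER2. CCN1, which encodes a matricellular protein induced by serum and YAP, was enriched 10.46-fold, at a pileup of 26.28 and an FDR of 5.84e-18. ATF4, the factor of the integrated stress response, reached 5.47 with an FDR of 0.00132. The cytokine genes CXCL1, CXCL2, CXCL8 and IL6 had no listed peak. HSPA1A and HSPA1B are near-identical copies whose reads can be confused, and each had 1 peak with an FDR of 0.339 or more.

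The window of 5 kb set which peaks were counted. The outermost peaks inside it lay 3805 bp from NR4A2, 3644 bp from KLF10 and 3542 bp from FOSL1, with pileups from 6.81 to 8.76. The first outside it lay 5916 bp from ZFP36, 6613 bp from ZFP36L1 and 6897 bp from DUSP2, with pileups from 6.81 to 13.63. No peak lay between 3805 and 5916 bp from a member, so an edge anywhere between these distances gives the same counts.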

How the data were processed

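The peak list was analysed as deposited. The authors immunoprecipitated HNRNPK-bound DNA from H1299 cells, and the submitters' processing notes name Trimmomatic 0.36, STAR 2.5.3a, MACS2, bedtools, HOMER and the build GRCh38. The fold enrichment deposited for each peak is the ratio of its IP signal to that expected locally. The FDR deposited beside it is a p-value adjusted over peaks. The pileup, a coverage signal made by the authors, came in whole multiples of 0.9734, which gave the depth in fragments. The list was taken as MACS2 output for the 1 IP against the 1 input. Its thresholds are not given in the sources used here, and total reads were not analysed here.

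Dividing the pileup plus 1 by the fold enrichment and subtracting 1 gave the local background, which rests on that reading of the list. Gene spans came from RefSeq GRCh38.p14, and promoters and strand from a RefSeq table that matched 34 members. The other 11 (DUSP4, DUSP5, EGR3, FOSL1, IER3, KLF10, MCL1, MYC, NR4A2, TRIB1 and ZFP36L2) have no strand here. Shares of like-length genes are shares in 6 length classes with edges at 2, 5, 10, 20 and 50 kb, weighted by the members in each. Proportions carry Wilson 95% confidence intervals. Peaks on contigs, 252 in number, reached no gene. Members and lists were chosen with earlier results of these data known. Every member was named, with position, pileup, fold enrichment, FDR and distance of the strongest peak for those with an FDR under 0.05. The CArG, CRE, AP-1 and GGGCGG motifs and the values without chromosome 19 were added after the data were seen. Counting was tested on simulated data. Python 3.11.15, numpy 2.4.6, scipy 1.17.1, pandas 2.3.3 and matplotlib 3.10.9 were used.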

Additional observations from a re-analysis of the deposited data

How the results depend on the processing

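Of 20 alternatives, 16 left the value within the limit set for it, which was 1.5 times for counts. The 19 members with a peak became 9 with an FDR under 0.05 and 5 with a fold enrichment of at least 5, by construction, since fewer peaks were counted. With windows of 0, 1 and 10 kb they were 14, 18 and 23. The 14 at 0 kb made up 31.1% of members, against 17% of like-length genes. Like-length shares for windows of 1 and 10 kb are not given here. The 48 peaks at members became 27 with a window of 0 kb, which leaves out those beside the genes, 36 with 1 kb and 58 with 10 kb. The median pileup of 9.73 became 14.6 for peaks with an FDR under 0.05, a selection on height. With the window of 5 kb, the share of like-length genes with a peak ranged from 28.5% to 31.6% over the alternatives. Without chromosome 19, chosen after the data were seen, 15 of 38 members had a peak, and the median pileup was 8.76. Of peaks inside genes, 9 of 18 were nearer the start. Inside genes under 10 kb the share was 53.3% at members and 51.6% at other genes, so the gap of the full window was not seen there. Without the 3 peaks nearer to the start of another coding gene, at ZFP36 and SRF, 11 of 28 peaks were nearer the start, against 11 of 31. No paired analysis was possible because there was 1 IP and 1 input library.

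Single peaks are shallow, with a median depth of 10 fragments at members, and 14 of the 48 had an FDR under 0.05. The reads per library were not analysed here. Strand was lacking for 11 members, including FOSL1 and NR4A2, so their peaks stand outside the profile along genes. Windows of neighbouring genes overlap, and 4 member peaks overlapped another coding gene.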
